A study of Mus musculus with 10 samples.

Results

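The retromer and its sorting nexin partners were followed through 9 genes, chosen by name out of the 24982 rows of the count table: the retromer core genes Vps35, Vps26a, Vps26b and Vps29, and the sorting nexin genes Snx1, Snx2, Snx5, Snx6 and Snx27. The table lists them in capitals, as VPS35, VPS26A, VPS26B, VPS29, SNX1, SNX2, SNX5, SNX6 and SNX27. Micro-dissected dentate gyrus, the granule neuron field of the hippocampus, was sequenced as bulk RNA from 5 global Fndc5 knockouts and 5 wild types. All 10 were males of the C57BL/6 strain at 10 weeks of age, with 1 library each, and a library held 26226375 to 34514373 counts in knockouts and 26963625 to 43802079 counts in wild types. Fndc5 encodes the membrane protein from which irisin, a hormone secreted by muscle, is cleaved, and a global knockout is not restricted to a chosen cell type. The labels do not give the deleted part of the gene, whether mice shared a litter, or a processing batch. The genes were taken up because Vps35 had one of the smaller p-values in this same knockout against wild-type contrast, and the question was whether its shift was shared by its complex. All genotype differences of the 9 genes are therefore given as a description, without a test of their own.

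Retromer is a coat complex of the endosome that returns membrane proteins to the Golgi or the cell surface and so keeps them from degradation in the lysosome. Vps35 is the long scaffold subunit, Vps26a and Vps26b are alternative subunits that sit at one end of it, and Vps29 sits at the other end. Snx1 or Snx2 pairs with Snx5 or Snx6 through curved BAR domains to shape the tubules in which cargo leaves. Snx27 has a PDZ domain and links retromer to cargo such as neuronal receptors, and variants of human VPS35 are a known cause of inherited Parkinson disease.

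The genes lie on different chromosomes, apart from Vps26b and Snx1, which are both on chromosome 9. Vps35 lies on the minus strand of chromosome 8 from 85260392 to 85299802, Vps26a on chromosome 10 from 62455235 to 62486805, Vps26b on chromosome 9 from 27007771 to 27030065 and Vps29 on chromosome 5 from 122354369 to 122364984 (GRCm38, GENCODE). All 9 are protein-coding genes, and each passed the filter on low counts. Exons of Vps35 overlap those of Orc6 on the other strand by up to 171 bases, those of Vps29 overlap Fam216a by up to 340 bases, and those of Snx5 overlap Mgme1 by up to 206 bases. The library kit keeps the strand, but the strand setting of the counting is not given in the sources used here, so reads in these stretches may be shared. Orc6 was at 20.2 ± 1.26 CPM in knockouts and 19.3 ± 0.627 CPM in wild types (mean ± SD, n = 5 each), where CPM is the count scaled to a common library size.

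The promoters of both pairs of alternative subunits for which sequence was at hand are shown, since they differ in the letters of the E-box, CACGTG, a palindrome that reads the same on both strands. A RefSeq window (GRCm38.p6) of 300 bases, from 250 bases before a RefSeq start to 50 after it, was matched for 6 of the 9 genes. Vps26a had 2 windows. These starts can differ from the GENCODE gene start. The Snx1 window (66124837 to 66125136) lies inside the GENCODE gene, which starts at 66126587 on the minus strand. Likewise the Snx5 window (144270523 to 144270822) lies inside its gene, which starts at 144270906. Each window below is written on the gene's own strand, 5′ to 3′. Capitals mark CACGTG and, where it is present, the longer palindrome with GT before and AC after these letters, known as the CLEAR element of lysosomal genes.
Vps26a, chr10:62486756-62487055, minus strand: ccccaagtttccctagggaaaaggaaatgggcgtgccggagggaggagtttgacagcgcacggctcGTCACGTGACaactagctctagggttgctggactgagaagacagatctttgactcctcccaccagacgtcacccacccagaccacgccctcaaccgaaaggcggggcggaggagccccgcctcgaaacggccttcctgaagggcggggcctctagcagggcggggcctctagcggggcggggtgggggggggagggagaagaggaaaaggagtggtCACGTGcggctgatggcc
Vps26b, chr9:27030045-27030344, minus strand: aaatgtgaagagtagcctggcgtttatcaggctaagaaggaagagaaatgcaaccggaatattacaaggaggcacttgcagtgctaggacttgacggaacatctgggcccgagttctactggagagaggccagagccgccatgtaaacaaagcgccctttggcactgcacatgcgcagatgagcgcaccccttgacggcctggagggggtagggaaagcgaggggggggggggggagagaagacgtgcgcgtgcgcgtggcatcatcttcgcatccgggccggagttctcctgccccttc
Snx5, chr2:144270523-144270822, minus strand: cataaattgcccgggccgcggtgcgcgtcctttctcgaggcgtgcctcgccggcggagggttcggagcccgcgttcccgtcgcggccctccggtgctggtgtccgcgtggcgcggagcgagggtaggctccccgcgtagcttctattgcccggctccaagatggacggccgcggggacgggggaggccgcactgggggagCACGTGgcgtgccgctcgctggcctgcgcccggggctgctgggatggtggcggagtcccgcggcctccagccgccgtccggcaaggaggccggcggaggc
Snx6, chr12:54795613-54795912, minus strand: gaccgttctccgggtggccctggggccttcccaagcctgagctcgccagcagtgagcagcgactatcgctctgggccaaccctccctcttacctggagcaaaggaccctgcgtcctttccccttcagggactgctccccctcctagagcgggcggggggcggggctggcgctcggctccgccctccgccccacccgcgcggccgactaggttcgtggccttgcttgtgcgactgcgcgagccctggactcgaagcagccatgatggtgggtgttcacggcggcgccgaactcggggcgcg
The CLEAR element was found in both Vps26a windows and in none of the windows of Vps26b, Vps29, Snx1, Snx5 or Snx6. Among 32851 promoter windows of the same length it was in 0.326%. CACGTG, which the CLEAR element contains, was in Vps26a and Snx5 and in 7.15% of all windows. The GC box, GGGCGG on either strand, was in Vps26a, Vps29, Snx1 and Snx6 and in 35.7% of all windows. The palindrome of the cyclic AMP response element (TGACG followed by TCA) was in none of the 7 windows and in 1.79% of all. A match is a description of the sequence and not a binding site.

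Fndc5, the targeted gene, checks the labels. It was at 45.4 to 56.7 CPM in knockouts and 69.2 to 80.3 CPM in wild types, and Fndc5 fell by 31.9% in the knockout (log2 fold change -0.55, SE 0.057, adjusted p 0.000495 in edgeR's quasi-likelihood test). It was the 1 gene of 14867 tested that passed an adjusted p of 0.05, which is 0.00673% of genes. None of the 9 retromer and sorting nexin genes passed, in edgeR (0 of 9) or in DESeq2 (0 of 9). At an unadjusted p under 0.05 there were 2 of the 9 with either tool, Vps35 and Snx6, both lower in the knockout, where 3.75% of all genes tested in edgeR were lower at that level. Because Vps35 was noticed in this contrast, nothing is read from these counts.

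Vps35 was at 149.1, 149.0, 148.5, 142.8 and 151.7 CPM in knockout mice 1 to 5, against 164.7, 171.5, 164.4, 161.7 and 156.2 CPM in wild-type mice 1 to 5. Every knockout library lay below every wild-type library, with the narrowest gap between knockout mouse 5 and wild-type mouse 5. The level averaged 148.2 ± 3.28 CPM in knockouts and 163.7 ± 5.55 CPM in wild types (SD, n = 5 each). On the log2 scale Vps35 differed by -0.14 (SE 0.034, 95% interval -0.22 to -0.07), which is -9.47%. Such a full separation with the knockout below was found for 1 of the 9 genes, Vps35 itself, and for 0.437% of all 14867 genes. The opposite order, every knockout above every wild type, was found for 0 of the 9 and 0.457% of all genes. A log2 fold change as low as that of Vps35 or lower was found for 7.93% of genes.

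**Figure D1:**
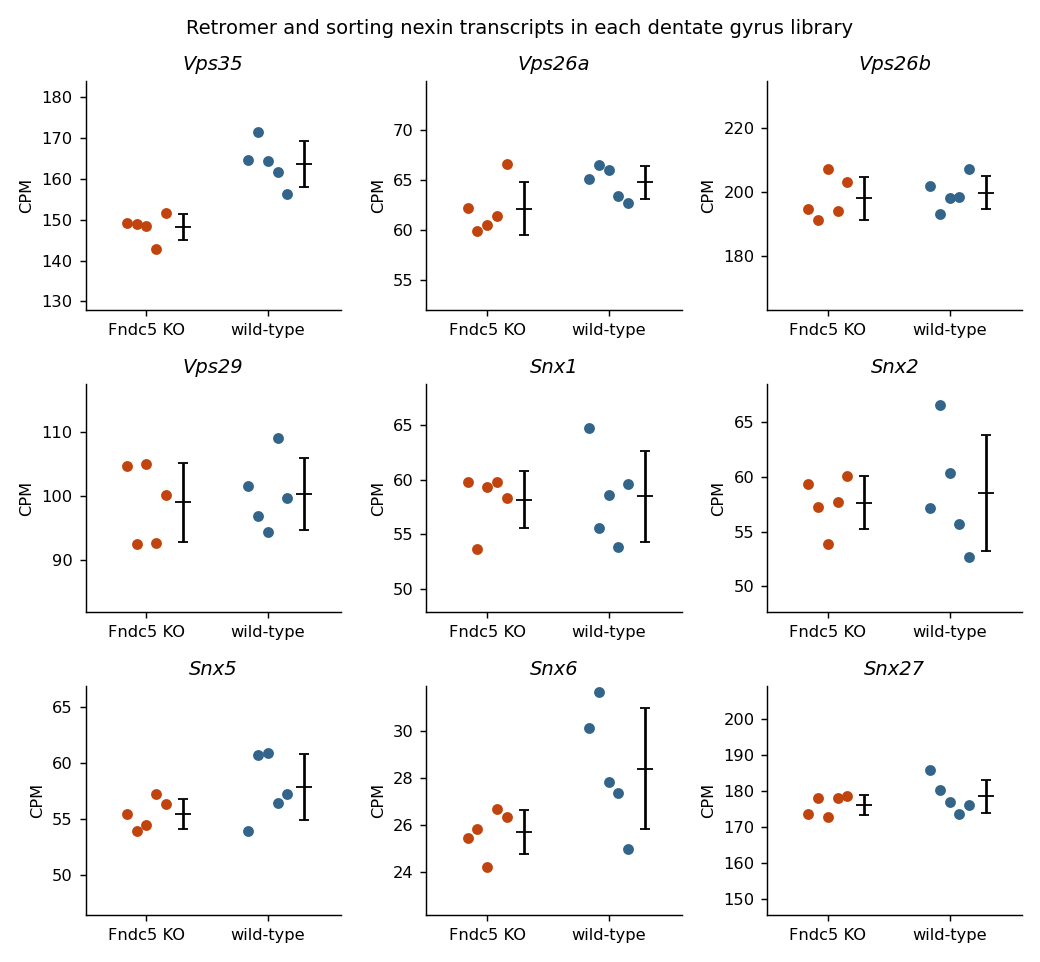
CPM of the 9 genes in each of the 5 Fndc5 knockout and 5 wild-type libraries (points), with the mean and SD beside them; each vertical axis spans the same percentage around the middle of both genotypes and does not start at 0. Vps35 separates the genotypes, at 142.8 to 151.7 CPM in knockouts and 156.2 to 171.5 CPM in wild types, and the other 8 genes overlap.

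The partners that bind Vps35 directly had smaller estimated differences. Vps29, the subunit at the far end of the scaffold, was at 104.8, 92.5, 105.0, 92.6 and 100.2 CPM in knockouts, against 101.6, 96.8, 94.4, 109.2 and 99.8 CPM in wild types. The groups lay across each other, with a log2 difference of -0.02 (SE 0.048, 95% interval -0.12 to 0.08). Vps26b, one of the alternative arms of the complex, was at 194.9, 191.3, 207.4, 194.0 and 203.1 CPM in knockouts, against 202.1, 193.3, 198.3, 198.4 and 207.2 CPM in wild types. Its libraries were mixed between genotypes, with a log2 difference of -0.01 (SE 0.035, 95% interval -0.09 to 0.06). Both intervals lie above the Vps35 estimate of -0.14 but overlap its interval of -0.22 to -0.07. Vps35 was taken up for a small p in this same contrast, so its estimate may lie too far from 0. Partners could then look smaller even with an equal shift, and the difference between genes was not tested.

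Vps26a, the other arm, lay between these. It was at 62.2, 59.95, 60.5, 61.4 and 66.6 CPM in knockouts, against 65.1, 66.5, 66.0, 63.4 and 62.75 CPM in wild types. In 4 of 5 knockouts it was below every wild type, and knockout mouse 5 was the highest of all 10 libraries. Its log2 fold change was -0.06 (SE 0.039), and the 95% interval of -0.14 to 0.02 reaches down to about the Vps35 estimate.

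Among the BAR-domain sorting nexins, Snx6 had the estimate closest to that of Vps35, with wider scatter. Snx6 was at 25.5, 25.8, 24.2, 26.7 and 26.3 CPM in knockouts, against 30.1, 31.6, 27.8, 27.4 and 25.0 CPM in wild types. The knockouts were tightly grouped, and 4 of 5 wild types lay above all of them, while wild-type mouse 5 lay within their range. Snx6 differed by -0.15 on the log2 scale (SE 0.060, 95% interval -0.27 to -0.02). The value was -0.19 without wild-type mouse 5 and -0.10 without wild-type mouse 2.

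Snx5, the paralog that can take the place of Snx6, was at 55.4, 53.9, 54.45, 57.2 and 56.3 CPM in knockouts, against 54.0, 60.7, 60.9, 56.5 and 57.2 CPM in wild types. Wild-type mice 1 and 4 lay within the range of the knockouts, and Snx5 differed by -0.06 in log2 (SE 0.042, 95% interval -0.15 to 0.03). Their partners Snx1 and Snx2 were close to 0, at -0.01 (SE 0.050, 95% interval -0.11 to 0.10) and -0.02 (SE 0.056, 95% interval -0.14 to 0.10). Snx1 ranged from 53.7 to 59.8 CPM in knockouts and from 53.9 to 64.75 CPM in wild types. Snx2 ranged from 53.85 to 60.1 CPM in knockouts and from 52.6 to 66.6 CPM in wild types. For both genes the wild types were the more scattered group, and their highest library lay above every knockout.

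Snx27, the cargo adaptor, was at 173.6, 177.9, 172.7, 177.9 and 178.7 CPM in knockouts, against 185.8, 180.2, 176.9, 173.7 and 176.2 CPM in wild types. Only wild-type mice 1 and 2 exceeded every knockout, and its difference was -0.02 in log2 (SE 0.032, 95% interval -0.09 to 0.05). The estimates of the 8 genes other than Vps35 were below 0 for 8 of 8, with a median of -0.02 and a range of -0.15 to -0.01, where 49.3% of all genes tested were below 0 and the median of all was 0.002. The signs of Vps26b, Vps29, Snx1, Snx2 and Snx27 turned positive under at least 1 alternative; for Snx1 upper-quartile scaling gave 0.003.

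**Figure D2:**
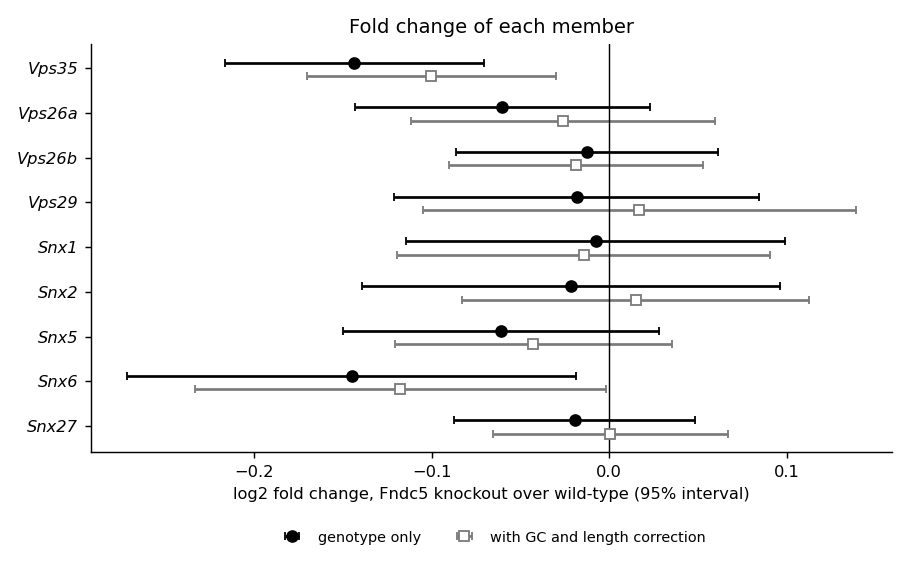
Log2 fold change of each gene, Fndc5 knockout over wild-type, with its 95% interval, from the fit with genotype only (black circles) and with a correction for GC content and transcript length (open squares). Vps35 moves to -0.10 with the correction and Snx6 to -0.12, and Vps29, Snx2 and Snx27 move to the other side of 0.

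Base composition moved with the genotype difference. Across the 14867 genes tested, which are not independent replicates, log2 fold changes followed the GC content of the transcript (Pearson r 0.270 over 14723 genes with a value). Vps35, with 42.3% GC, belongs with Vps29 (42.8%), Snx2 (42.8%), Vps26a (43.0%) and Snx6 (43.7%) at the low end of the 9 genes, and Vps26b (51.5%) is at the high end. The part of each library's Vps35 value that GC content and length account for in a smooth fit over all genes was -0.0596 to 0.0284 in knockouts and -0.0350 to 0.0974 in wild types on the log2 scale, so it overlapped between genotypes and leaned the same way. With that part removed from every gene, Vps35 was at -0.10 (SE 0.033, 95% interval -0.17 to -0.03), Snx6 at -0.12 (SE 0.055) and Vps26a at -0.03 (SE 0.040). Vps29 (0.02), Snx2 (0.01) and Snx27 (0.0007) then lay at or above 0. The corrected 95% intervals of Vps29 (-0.105 to 0.139), Vps26a, Snx1, Snx5 and Snx6 contained the corrected Vps35 estimate of -0.100. Those of Vps26b (-0.090 to 0.053), Snx2 (-0.083 to 0.113) and Snx27 (-0.065 to 0.067) lay above it.

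Members were set against each other by ratios of counts within each library, which do not depend on how libraries are scaled. These are ratios of RNA and do not measure the proteins in the complex. Counts of Vps26a per count of Vps35 were 0.4175, 0.4024, 0.4077, 0.4303 and 0.4391 in knockouts, against 0.3952, 0.3877, 0.4015, 0.3924 and 0.4018 in wild types. The groups nearly touched, at knockout mouse 2 and wild-type mouse 5. Counts of Snx27 per count of Vps35 were 1.16, 1.19, 1.16, 1.246 and 1.178 in knockouts, against 1.13, 1.05, 1.08, 1.08 and 1.13 in wild types. These 2 ratios were higher in every knockout than in every wild type, as they were for 15.9% of all genes set against Vps35, and since both divide by the Vps35 counts, nothing is read from their separation. For the same reason nothing is read from the other ratios to Vps35. In the knockout they were 8.83% higher for Vps29, 9.34% for Vps26b, 9.83% for Snx1 and 9.08% for Snx2, with overlapping libraries. Snx6 was the exception, at 0.174 ± 0.00856 counts per Vps35 count in knockouts and 0.173 ± 0.0103 in wild types (SD, n = 5 each).

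**Figure D3:**
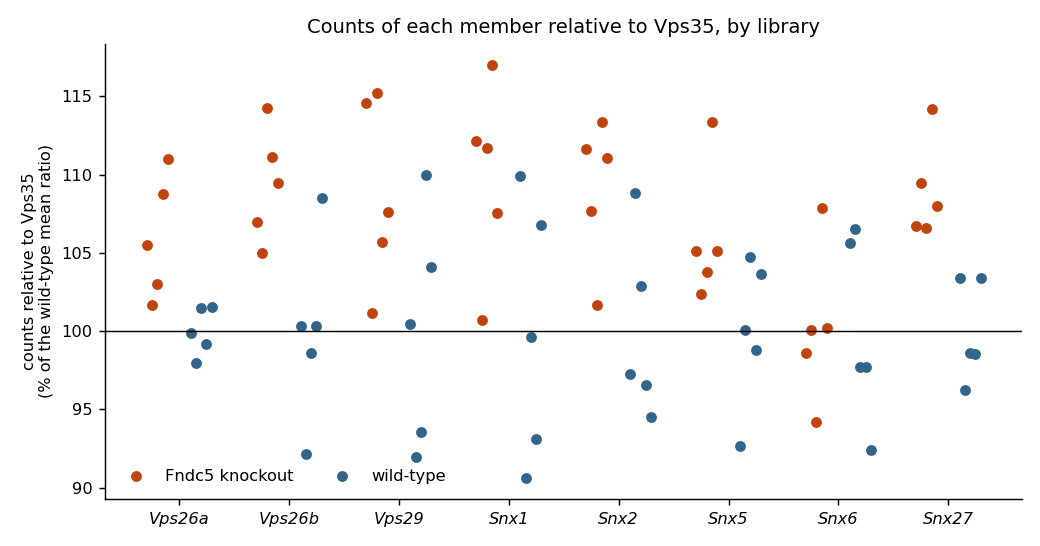
Counts of each gene divided by the counts of Vps35 in the same library, as a percentage of the wild-type mean ratio, for 5 Fndc5 knockout (orange) and 5 wild-type (blue) libraries. Snx6 has nearly the same mean ratio in both genotypes, Snx27 separates them, and Vps26a does so only narrowly.

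The balance within pairs of alternative subunits differed little. Vps26b had 3.19 ± 0.142 counts per Vps26a count in knockouts and 3.09 ± 0.148 in wild types. Snx1 had 1.01 ± 0.0627 counts per Snx2 count in knockouts and 1.01 ± 0.127 in wild types. Snx5 had 2.16 ± 0.0591 counts per Snx6 count in knockouts and 2.05 ± 0.201 in wild types (SD, n = 5 each for all 3 ratios). Each difference was smaller than the SD of at least one genotype, and the libraries overlapped.

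Between genes, levels were compared as CPM per kilobase, and the order depended on which length was used. Per kilobase of the longest coding transcript, Vps26b was highest at 55.4 ± 1.91 in knockouts and 55.9 ± 1.45 in wild types, followed by Vps35 at 42.7 ± 0.945 in knockouts and 47.1 ± 1.597 in wild types, and Vps29 at 36.5 ± 2.28 in knockouts and 36.95 ± 2.08 in wild types. Snx27, Snx1 and Snx2 came next at 28.1, 28.1 and 27.9 in knockouts and 28.5, 28.2 and 28.3 in wild types, with no order among them beyond their SD. Vps26a (22.9 in knockouts, 23.9 in wild types) and Snx5 (22.1 in knockouts, 23.0 in wild types) were likewise neighbours within their spread. Snx6 was lowest at 13.3 ± 0.493 in knockouts and 14.7 ± 1.34 in wild types.

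Per kilobase of all annotated exons, Vps26b was again highest (38.9 in knockouts, 39.2 in wild types) and Snx6 again lowest (8.57 in knockouts, 9.47 in wild types). Vps35 then came at rank 5, at 16.65 ± 0.369 in knockouts and 18.4 ± 0.623 in wild types. Its annotated exons add up to 8899 bases, against 3474 in the longest coding transcript. Vps26b transcripts exceeded those of Vps26a with either length.

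Whether the partners vary with Vps35 from mouse to mouse does not use the genotype difference by which it was noticed, so this was tested. For each library the deviation of log2 CPM from its genotype mean was taken, and the deviations of 8 genes were correlated with those of Vps35 over the 10 libraries, with an exact two-sided permutation test over the 14400 pairings that keep each library in its genotype. Snx2 followed Vps35 most closely (Pearson r 0.78, exact p 0.0258, adjusted over the 8 genes 0.199; Spearman rho 0.72, exact p 0.0439, adjusted 0.165). Snx6 (r 0.67, exact p 0.0747, rho 0.70, exact p 0.0619) and Vps26a (r 0.62, exact p 0.0543, rho 0.70, exact p 0.0353) came next, each at an adjusted p of 0.199 for r and 0.165 for rho. The others were Snx27 (r 0.30, rho 0.45), Snx5 (r 0.20, rho 0.10), Vps29 (r 0.02, rho 0.01), Snx1 (r -0.21, rho -0.03) and Vps26b (r -0.28, rho -0.27), with exact p between 0.227 and 1.0 and adjusted p between 0.454 and 1.0. After adjustment 0 of 8 passed. By r 1 of 8 was at an unadjusted exact p under 0.05, against 5.33% of all 14866 other genes. By rho it was 2 of 8, and the share over all genes was not computed for rho.

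These correlations depended on which libraries were kept. Without the 2 libraries farthest from the median deviation of Vps35, knockout mouse 4 and wild-type mouse 5, r was 0.89 for Snx2, 0.86 for Snx6 and 0.62 for Vps26a, and these 3 passed by the exact test (adjusted p 0.0208, 0.0208 and 0.0324). On those 8 libraries 3 of 8 genes were at an unadjusted exact p under 0.05, against 5.41% of all 14866 other genes, and 0.390% of genes had an r as high as Snx2 or higher, 0.720% as high as Snx6 and 7.68% as high as Vps26a. They also passed without knockout mouse 4 alone (r 0.91, 0.93 and 0.65, each with an exact adjusted p of 0.0139), where 7.41% of all other genes were at an unadjusted exact p under 0.05. Without wild-type mouse 5 alone r was 0.66 for Snx2, 0.41 for Snx6 and 0.55 for Vps26a. Wild-type mouse 2, kept in those 8 libraries, lay about as far out as knockout mouse 4 (log2 deviation of Vps35 0.068 and -0.053). With wild-type mouse 2 alone left out, r was 0.58 for Snx2, 0.45 for Snx6 and 0.58 for Vps26a (exact adjusted p 0.553, 0.752 and 0.553). With knockout mouse 4 and wild-type mouse 5 both left out, r was -0.44 for Vps29, 0.44 for Snx27, 0.55 for Snx5, -0.03 for Snx1 and -0.24 for Vps26b. With the trend in GC content and length removed, r was 0.31 for Snx2, 0.31 for Snx6 and 0.75 for Vps26a, while it was 0.68 for Vps29, 0.59 for Snx1, 0.58 for Snx27 and 0.57 for Vps26b, and 0 of 8 passed (exact adjusted p 0.137 to 0.773). Over all 14866 other genes the quartiles of r were -0.27 and 0.26 before this correction, and 5.06% of genes had an r as high as Vps26a or higher, 3.52% as high as Snx6 and 1.14% as high as Snx2. The median r was 0.25 for the 8 genes and -0.006 for all genes before the correction. After it the median was 0.57 for the 8 genes and 0.09 for all genes, whose quartiles were then -0.26 and 0.41 and whose 95th percentile was 0.73.

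**Figure D4:**
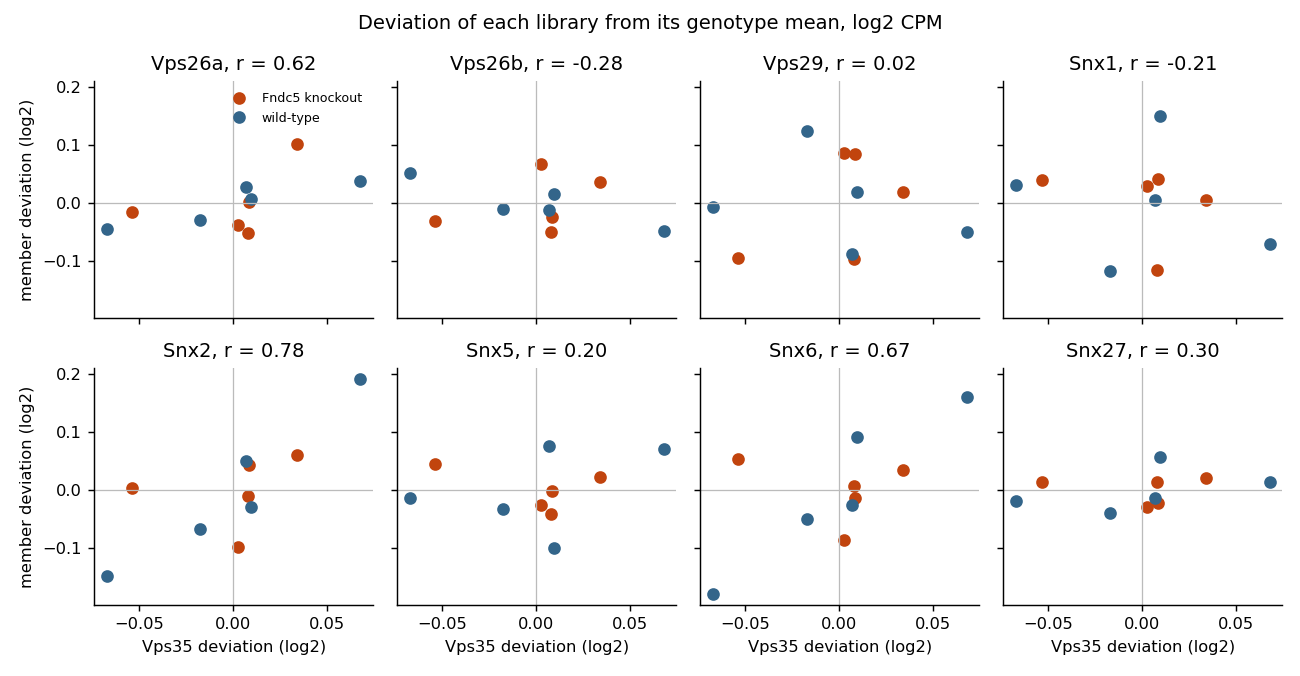
Deviation of each library from its genotype mean in log2 CPM, for Vps35 (horizontal) and each of the other 8 genes (vertical), in Fndc5 knockout (orange) and wild-type (blue) libraries; r is Pearson's over the 10 libraries. The points of Snx2, Snx6 and Vps26a slope upward, and those of Vps29 show no slope (r 0.02).

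The genes of the whole table with the deviations most like those of Vps35 over the 10 libraries were March5 (r 0.95), Cul2 (0.95), Ube2a (0.94), Mapk8 (0.92) and Fuca2 (0.92). March5 encodes a ubiquitin ligase of mitochondria, Cul2 a cullin scaffold of ubiquitin ligases, Ube2a a ubiquitin-conjugating enzyme, Mapk8 the stress kinase JNK1 and Fuca2 a fucosidase. Those most opposed were Sf3b5 (-0.93), Abcd4 (-0.93) and Pfkfb4 (-0.91). With GC content and length removed, March5 was at 0.44, Sf3b5 at -0.10 and Mapk8 at 0.91. These values were picked as extremes among 14866 genes and carry no test.

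The wider sorting machinery was read from 8 gene lists beyond the members, with 117 tested genes of 119 listed. In edgeR 0 passed over all genes in either direction, in DESeq2 0 passed, and at an unadjusted p under 0.05 in edgeR 1 of the 117 was higher and 6 were lower, where 2.54% of all genes tested were higher and 3.75% lower at that level. Other sorting nexins were above 0 for 9 of 23 and below for 14 (median log2 fold change -0.01), with Snx13 at -0.11 (SE 0.046), Snx14 at -0.10 (SE 0.044) and Snx10 at -0.08 (SE 0.042). With the correction for GC content and length these were at -0.04, -0.07 and -0.04. Snx13 and Snx14 carry an RGS-like domain beside the phosphoinositide-binding one. Snx3, which recruits retromer without BAR-domain partners, was at -0.01, and Snx32, a close relative of Snx5 and Snx6, was at 0.06. The WASH complex, which nucleates actin on retromer-coated endosomes, had 3 of 8 above 0 (median -0.02), with the capping protein gene Capza2 at -0.08 (SE 0.041), Washc1 at 0.08 (SE 0.049) and Washc5 at 0.04 (SE 0.048). The correction put Capza2 at -0.008, Washc1 at 0.05 and Washc5 at 0.05, and Washc5 ranged from 0.003 to 0.07 with single libraries left out. Retromer cofactors had 4 of 13 above 0 (median -0.03), with Ankrd50, a SNX27 and retromer partner, at -0.12 (SE 0.055), the membrane-scission ATPase Ehd1 at 0.06 (SE 0.038) and the Rab7 exchange factor subunit Mon1a at 0.09 (SE 0.075). After the correction Ankrd50 was at -0.11, Ehd1 at 0.02 and Mon1a at 0.06. Rab7 itself, the GTPase that brings retromer to the late endosome, was at -0.01, and Tbc1d5, which inactivates Rab7, was at -0.03.

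Retriever, a relative of retromer built on Vps35l, and its CCC partner complex had 9 of 16 above 0 (median 0.007). Ccdc22 was at 0.12 (SE 0.053), Vps35l (spelled VSP35L in the table) at 0.06 (SE 0.040) and Commd6 at -0.10 (SE 0.057), and corrected values were 0.09, 0.06 and -0.08. The HOPS and CORVET tethers of late and early endosomes had 5 of 8 above 0 (median 0.007), with Vps16 at 0.08 (SE 0.041), Vps11 at 0.04 (SE 0.041) and Vps41 at -0.03 (SE 0.036), or 0.08, 0.03 and -0.01 when corrected. The GARP and EARP tethers had 3 of 5 above 0 (median 0.02), with Vps52 at 0.05 (SE 0.039), Vps50 at -0.05 (SE 0.045) and Vps54 at -0.05 (SE 0.055). Corrected, Vps52 was at 0.02, Vps50 at -0.0003 and Vps54 on the other side of 0 at 0.02. ESCRT genes, which sort cargo towards the lysosome, had 11 of 25 above 0 (median -0.001), with Chmp5 at -0.10 (SE 0.037), Stam at -0.10 (SE 0.044) and Vps37a at -0.09 (SE 0.044). The correction left Chmp5 at -0.08, Stam at -0.03 and Vps37a at -0.01. Chmp5 was at 57.6 to 60.8 CPM in knockouts and 62.0 to 66.2 CPM in wild types, with every knockout below every wild type, as for 0.437% of all genes, and it was named for a small p in this same contrast.

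Cargo carried by retromer or Snx27 had 7 of 19 above 0 (median -0.03). Among relatives of sortilin the values furthest below 0 were Sorcs1 at -0.25 (SE 0.12, 4.43 ± 0.596 CPM in knockouts and 5.32 ± 0.778 CPM in wild types) and Sorcs3 at -0.16 (SE 0.067, 25.7 ± 2.74 CPM in knockouts and 28.8 ± 1.51 CPM in wild types). Wls, the carrier of Wnt proteins, was at -0.13 (SE 0.077). Corrected values were -0.23 for Sorcs1, -0.16 for Sorcs3 and -0.09 for Wls. Other sortilin-family receptors were nearer to 0, with Sorl1 at -0.06, Sort1 at -0.03 and Sorcs2 at -0.03. For comparison, the median of all 14867 genes was 0.002.

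**Figure D5:**
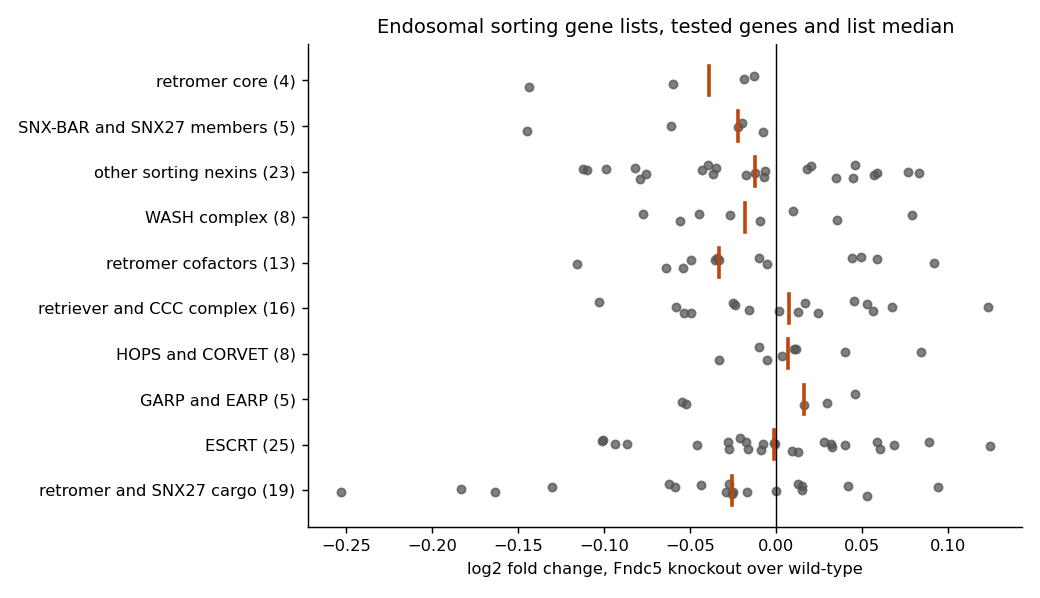
Log2 fold change, Fndc5 knockout over wild-type, of each tested gene (points) in the members and the 8 wider lists, with the list median (orange bar) and the number of tested genes in brackets; vertical scatter within a row is for display. Medians lie between -0.04 and 0.02.

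Markers of the cell types in the dissected tissue were set beside these values. Granule neuron markers summed to 2263 to 2419 CPM in knockouts and 2092 to 2455 CPM in wild types, astrocyte markers to 4973 to 6219 CPM in knockouts and 5268 to 6054 CPM in wild types, and microglial markers to 281.8 to 329.2 CPM in knockouts and 292.9 to 323.6 CPM in wild types. Interneuron markers summed to 476.1 to 524.9 CPM in knockouts and 503.3 to 592.7 CPM in wild types, with 7 of 8 below 0. CA pyramidal neuron markers summed to 187.6 to 207.7 CPM in knockouts and 192.7 to 223.1 CPM in wild types, with 6 of 8 below 0. Above 0 were 6 of 8 microglial, 6 of 8 oligodendrocyte, 6 of 10 granule neuron and 4 of 8 astrocyte markers. Of all genes tested 49.3% were below 0. None of the 11 marker sums separated the genotypes, and no marker of the 11 lists was at 0 counts in all libraries. In bulk tissue a smaller number of cells of a type cannot be told apart from less RNA per cell, and the part of either in the Vps35 values was not tested. The edgeR p-values set a genotype difference against the spread between these mice. The permutation p-values concern the correlation with Vps35 within genotype.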

How the data were processed

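The authors deposited 1 table of raw read counts per gene symbol, 1 column per mouse, with no normalization. Per the labels' protocols, stranded poly(A) libraries were read as single-end 75-base reads. The submitters' processing notes name STAR (2.5.1b), Cufflinks (2.2.1) and the build mm10 without a role. How the counting treated strand and multiply mapped reads, and its annotation, were not stated.

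Counts were filtered (filterByExpr, 14867 genes), scaled by TMM and fitted with edgeR 4.0.16 in R 4.3.3 (glmQLFit and glmQLFTest, genotype only), with Benjamini-Hochberg adjustment over all genes and a threshold of 0.05. Each standard error is the log2 fold change over the square root of F. CPM uses the TMM library sizes, and log2 CPM a prior count of 2. GC content and transcript length are those of the longest coding transcript in GENCODE M21 (GRCm38), and their trends were fitted per library with natural splines of 4 degrees of freedom each. Symbols of 24490 rows matched that annotation. Every same-genotype pair of libraries differed beyond counting noise (chi-square over degrees of freedom of at least 4.64).

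The fit was tested first on simulated data with 200 genes changed. It recovered 68.2% of genes changed 1.25-fold, 82.1% at 1.5-fold and 95.5% at 2-fold, and called 7 unchanged genes. In the real data 1 gene passed, and the adjusted threshold is stricter when fewer genes change. These shares are therefore not the power of the real contrast. Changes as small as that of Vps35 were not simulated. Alternatives were DESeq2 1.42.0, upper-quartile scaling, limma-voom (limma 3.58.1), 2 other low-count filters, the mouse number as a block, the GC and length correction, and each library left out. For the genes named from the wider lists for a small p, the correction for GC content and length is given beside the value. The members and lists were chosen with earlier results of these data known. Named were Fndc5, the 9 members, up to 3 genes of each wider list with the smallest p, and the 5 genes most and 3 least correlated with Vps35, passing over predicted genes and pseudogenes. Rab7, Tbc1d5, Snx3, Snx32, Sorl1, Sort1 and Sorcs2 were named after their values were seen, and no corrected value is given for them.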

Additional observations from a re-analysis of the deposited data

Results flagged for a closer look

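The CPM of the 9 genes and 11 ratios of counts were searched in each genotype for 1 mouse standing apart, which gave 2 cases in 40 groups, and chance gives about 1 in 20. Snx1 was at 53.7 CPM in knockout mouse 2, below the other knockouts at 58.4 to 59.8 CPM. The ratio of Snx5 to Vps35 counts was 0.401 in knockout mouse 4, above the other knockouts at 0.362 to 0.372. In that mouse Vps35 had its lowest value of all libraries.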

How the results depend on the processing

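Vps35 kept its sign in 18 of 18 alternatives (-0.16 to -0.10), as did Snx6 (-0.19 to -0.10), Vps26a (-0.09 to -0.03) and Snx5 (-0.09 to -0.04), and 0 of 9 genes passed over all genes in any of them. The number of genes past the threshold in the whole table was 1, but 3 with DESeq2, 8 with the replicate block, 8 with the replicate block and the GC and length correction, and between 1 and 3 when any one library was dropped (2 without knockout mouse 2, 3 without wild-type mouse 1). Signs turned for 5 genes whose estimates were within 1 standard error of 0. With the GC and length correction Vps29 was at 0.017, Snx2 at 0.015 and Snx27 at 0.00065, and with the block added at 0.0174, 0.0145 and 0.0010. Snx1 was at 0.0026 under upper-quartile scaling. With single libraries left out the ranges were -0.030 to 0.00084 for Vps26b, -0.040 to 0.014 for Vps29, -0.036 to 0.032 for Snx1 and -0.056 to 0.028 for Snx2.

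The number of genes following Vps35 within genotype was 0 of 8, 3 without the 2 farthest libraries and 0 to 3 with single libraries left out. Their r changed sign for Vps26b (0.57), Snx1 (0.59) and Snx5 (-0.097) after the GC and length correction, and for Vps29 under upper-quartile scaling (-0.046) and without the 2 farthest libraries (-0.44). With single libraries left out r ranged from -0.51 to 0.032 for Vps26b, -0.27 to 0.22 for Vps29, -0.37 to 0.0055 for Snx1 and -0.17 to 0.44 for Snx5. The causes were not tested. With a count of 1 added, the 11 ratios moved by less than their SD. All 18 mean levels per kilobase moved by more than their SD with the other length.

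Same-numbered mice correlated at 0.209, 0.204, 0.108, 0.00901 and 0.0282. Differently numbered mice were not set beside these values, so they cannot decide whether the numbers pair the mice. The main fit used genotype only, and the mouse number entered as a block in the alternatives. The replicate block left 0 of 9 members and 0 of the 8 correlations past the threshold. Counts of the 9 genes per library ranged from 673 (Snx6) to 8719.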
